A study of Homo sapiens with 4 samples.

Results

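The 10 genes described here encode the base excision repair enzymes that remove uracil, 5-fluorouracil and oxidised bases from DNA and carry the first steps after removal: the glycosylases UNG, SMUG1, TDG, MBD4, OGG1, NTHL1 and MUTYH, the endonuclease APEX1, the scaffold XRCC1 and the polymerase POLB. They are a list of gene symbols, and all 10 were found among the 20323 gene rows of the series. MUTYH and XRCC1 each had a further row with almost no counts, and the row with the highest mean count was used. Their mRNA levels come from poly(A) RNA sequencing of HCT-8, a line grown from a human colorectal cancer, in a form resistant to 5-fluorouracil. In the METTL14 overexpression group (replicates 1 and 2) the resistant cells received a plasmid for METTL14, the partner of METTL3 in the complex that writes N6-methyladenosine on mRNA. In the control group (replicates 1 and 2) the same resistant cells received a negative control plasmid. All cells, controls included, were treated with 100 ug/mL cycloheximide, which blocks translation elongation. Neither parental cells nor cells without cycloheximide are compared here, and the labels do not say whether 5-fluorouracil was present at harvest.

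In base excision repair a glycosylase cuts the damaged base from its sugar, APEX1 nicks the DNA backbone at the empty site, and POLB fills the gap with XRCC1 and a DNA ligase (short-patch repair). In long-patch repair, which needs PCNA, the flap endonuclease FEN1 and replicative polymerases, a longer stretch is replaced. Uracil and 5-fluorouracil enter DNA when their deoxyuridine triphosphates are used in place of dTTP. The enzyme DUT breaks these nucleotides down, and TYMS, the thymidylate synthase that fluorouracil metabolites block, supplies the thymidylate that competes with them.

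The 4 libraries held 19206661 and 19829158 counts with METTL14 overexpression, against 20161082 and 19247784 counts in controls. METTL14 averaged 405.4 ± 21.7 CPM (counts scaled to library size) in overexpression libraries and 27.6 ± 4.34 CPM in control libraries (SD, n = 2 each), a log2 fold change of 3.88 (SE 0.141). The 2 controls stood further apart than the 2 overexpression libraries, with a chi-square per degree of freedom of 3.29 between overexpression libraries and 28.8 between controls. Of 10 epithelial marker genes, 10 reached 1 CPM on average in overexpression libraries and 9 in controls, and the list summed to 9252 and 9035 CPM with overexpression, against 18158 and 11846 CPM in controls. In that list 3 genes were higher and 3 lower, with CDH17 (log2 fold change 1.87) and KRT18 (-0.92) the furthest in each direction, both named after their values were seen. The fibroblast markers summed to 20.4 and 18.3 CPM with overexpression and to 13.4 and 16.3 CPM in controls. Of 10 leukocyte markers, CD3D, CD3E and MS4A1 were at 0 counts in all 4 libraries; the list summed to 70.7 and 70.2 CPM with overexpression and to 20.5 and 19.8 CPM in controls, nearly all of it CD68, a gene named after its values were seen.

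Short upstream sequences are shown for UNG, APEX1 and TDG, the 3 members that fell most in the edgeR fit of all libraries. The place of TDG among them depended on the setting. After removal of the trend of log2 fold change on transcript length and GC content, MUTYH (-0.79) fell more than APEX1 (-0.75). TDG (-0.54) then fell less than MUTYH, XRCC1 (-0.67), OGG1 (-0.64) and NTHL1 (-0.63). Without overexpression replicate 1, NTHL1 (-0.83) fell more than TDG (-0.73). The sequences come from RefSeq promoter windows on GRCh38.p14, cut to the bases that lie outside annotated exons. All run 5′ to 3′ on the plus strand, and capitals mark matches on either strand to the searched motifs.
UNG upstream start, chr12:109097347-109097573: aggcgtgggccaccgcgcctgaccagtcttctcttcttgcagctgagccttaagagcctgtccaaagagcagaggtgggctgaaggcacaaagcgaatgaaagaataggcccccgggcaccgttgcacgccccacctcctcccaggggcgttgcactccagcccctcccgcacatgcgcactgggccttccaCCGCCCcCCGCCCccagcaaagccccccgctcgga
UNG downstream start, chr12:109097922-109098117: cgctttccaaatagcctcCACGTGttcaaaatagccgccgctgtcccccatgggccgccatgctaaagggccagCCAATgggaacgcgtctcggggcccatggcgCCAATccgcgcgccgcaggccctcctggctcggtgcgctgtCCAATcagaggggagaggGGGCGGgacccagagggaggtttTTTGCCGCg
APEX1, chr14:20455106-20455190: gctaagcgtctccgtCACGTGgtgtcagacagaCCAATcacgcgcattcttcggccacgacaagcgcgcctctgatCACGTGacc
TDG, chr12:103965709-103965803: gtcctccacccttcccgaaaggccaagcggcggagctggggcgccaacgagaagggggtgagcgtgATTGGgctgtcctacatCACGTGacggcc
The motifs searched were the CCAAT box (CCAAT, or ATTGG on the other strand), the GC box (GGGCGG or CCGCCC), the E-box CACGTG, the E2F site (TTTCCCGC, TTTCGCGC, TTTGCCGC or TTTGGCGC), the cyclic AMP response element TGACGTCA and the ETS site CCGGAAGT. Over all 35116 RefSeq windows of 250 bases, 32.01% held a CCAAT box, 42.6% a GC box, 6.34% the E-box, 2.79% an E2F site, 1.65% the cyclic AMP element and 3.42% the ETS site. The CCAAT box was found in windows of UNG (downstream start), APEX1, TDG, MBD4, MUTYH, OGG1 and XRCC1. The GC box was found in windows of UNG, MBD4, MUTYH, NTHL1, OGG1 and XRCC1. The E-box letters were found in windows of UNG (downstream start), APEX1, TDG and NTHL1. The ETS site was found for NTHL1 only, and the cyclic AMP element for no member. The E2F letters were found in the window of the downstream UNG start, at position -63 relative to that start. RefSeq windows were matched for 8 of the 10 members, 11 windows in all, and SMUG1 and POLB are named only. A match of letters describes the sequence and shows no binding.

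Transcripts of most of these repair enzymes were lower with METTL14 overexpression. Of the 10 members, all of which passed the filter on low counts, 8 were lower, POLB alone was higher and MBD4 did not pass the test (edgeR's quasi-likelihood test with Benjamini-Hochberg adjustment over 12700 genes, threshold 0.05). Over all genes tested, 28.1% were called lower and 27.0% higher, so calls were frequent in both directions. The count of lower members was 4 without overexpression replicate 1, 3 without overexpression replicate 2, and 2 in a test against a 1.5-fold change, where 0 members were higher. The 10 members summed to 422.5 and 407.2 CPM in overexpression libraries, against 689.0 and 612.9 CPM in controls. Their median log2 fold change was -0.56, against -0.01 over all genes tested. In bulk RNA, fewer cells of a kind and less RNA per cell cannot be told apart. The smallest p that an exact two-sided permutation test can give with 2 libraries a group is 0.333, so each adjusted p rests on the spread that edgeR shares across genes. The series describes 2 independent experiments, and if libraries of a group shared a culture the p-values would measure technical spread only. In CPM the groups did not overlap for 10 of 10 members, but the same held for 79.8% of all genes tested. For MBD4 this rested on the scaling, as its counts were 443 and 462 with overexpression, against 441 and 519 in controls.

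**Figure D1:**
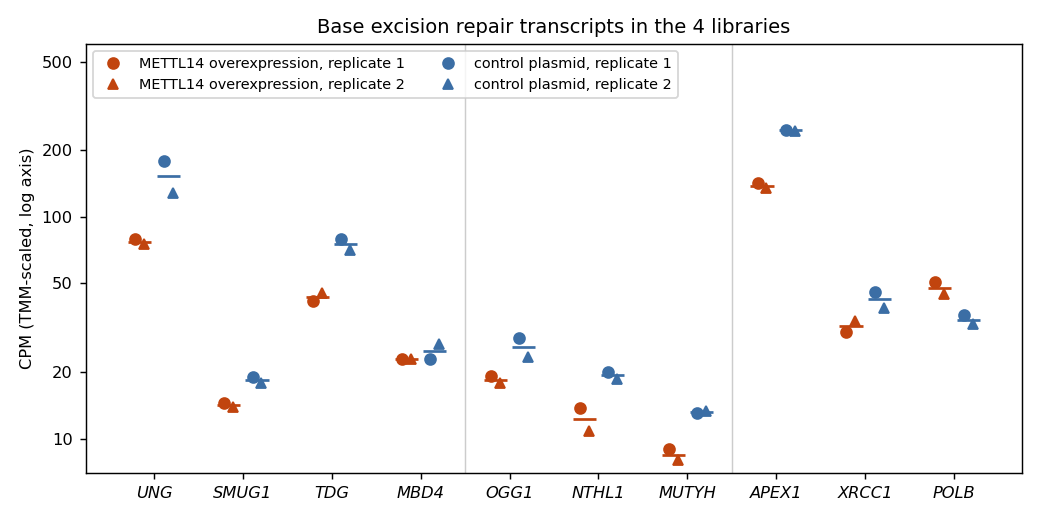
CPM (log axis) of each member in each library, overexpression points left of control points, with a short line at each group mean. POLB is the member whose overexpression points lie above its control points, and the MBD4 points nearly touch.

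UNG, the main uracil glycosylase of replicating cells, fell most when all libraries were used. It had 79.2 and 74.95 CPM with METTL14 overexpression, against 177.5 and 128.2 CPM in controls. The 2 overexpression libraries lay close together and the 2 controls far apart, with no overlap. UNG was 1.98-fold lower (log2 fold change -0.99, SE 0.157, edgeR adjusted p = 0.00169), and 9.46% of all tested genes had a lower log2 fold change. Its estimate ran between -1.21 without control replicate 2 and -0.73 without control replicate 1, so its size follows the spread of the controls. Without control replicate 1 APEX1 fell further (-0.81), so the first place of UNG rests on that library. UNG lies at chr12:109097574-109110992 on the plus strand. It has 2 annotated starts, a downstream one giving the mitochondrial enzyme and an upstream one giving the nuclear enzyme, and counts per gene do not separate them.

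TDG, which removes thymine and fluorouracil mispaired with guanine and also acts in active DNA demethylation, fell as well. It had 41.9 and 45.2 CPM with overexpression, against 79.4 and 70.5 CPM in controls. Both overexpression libraries were below both controls by a wide gap. The difference was 1.72-fold (log2 fold change -0.78, SE 0.111, edgeR adjusted p = 0.00106). TDG lies on the same chromosome, at chr12:103965804-103988874 on the plus strand.

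SMUG1, a glycosylase for uracil and 5-hydroxymethyluracil, changed less. It had 14.5 and 13.9 CPM with overexpression, against 18.99 and 17.9 CPM in controls. Its groups were separate, but the gap was small. It was 1.30-fold lower (log2 fold change -0.37, SE 0.133, edgeR adjusted p = 0.0454), the call nearest to the threshold. SMUG1 lies at chr12:54121277-54189008 on the minus strand. The call was lost in 7 of 15 tested alternatives, DESeq2 (adjusted p = 0.151) and the omission of either overexpression library among them.

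MBD4, the glycosylase with a methyl-CpG binding domain, had 22.8 and 22.8 CPM with overexpression, against 22.9 and 26.6 CPM in controls. The lower control almost equalled both overexpression libraries. Its log2 fold change was -0.12 (SE 0.128, edgeR adjusted p = 0.449), and it passed in 0 of 15 tested alternatives. MBD4 lies at chr3:129430944-129440179 on the minus strand.

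**Figure D2:**
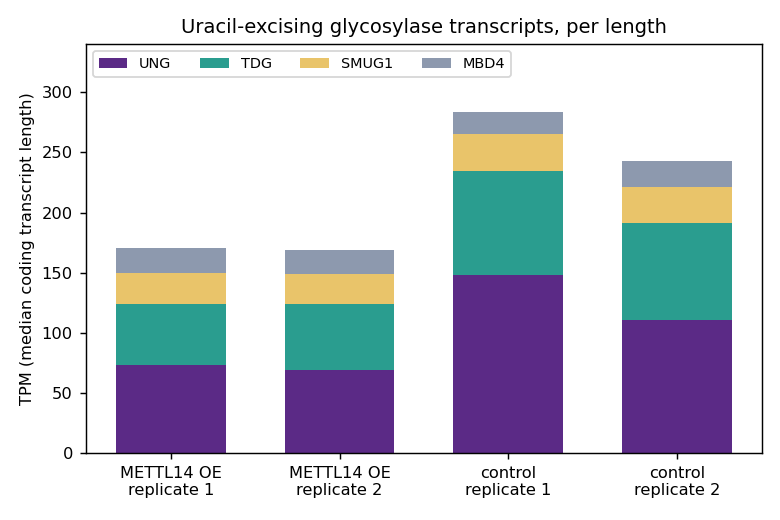
Stacked TPM of the 4 uracil glycosylases in each library, overexpression libraries left of controls, with lengths from the median coding transcript. The summed level was 170.2 and 169.1 TPM with overexpression and 283.4 and 243.0 TPM in controls.

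On a scale corrected for transcript length (TPM, in which all genes of a library share a fixed total), the 4 uracil glycosylases summed to 170.2 and 169.1 TPM with overexpression, against 283.4 and 243.0 TPM in controls. UNG made up 43.0 and 40.9% of that sum with overexpression and 52.1 and 45.7% in controls. SMUG1 made up 15.3 and 14.8% with overexpression and 10.8 and 12.4% in controls, and MBD4 11.8 and 11.9% with overexpression and 6.45 and 9.08% in controls. The share of TDG overlapped between groups, at 29.8 and 32.3% with overexpression and 30.6 and 32.9% in controls. Shares have a fixed total, so a smaller UNG share goes with larger shares of other genes, within a sum that was lower in both overexpression libraries. SMUG1 itself averaged 25.5 TPM with overexpression and 30.3 TPM in controls. MBD4 averaged 20.18 TPM with overexpression and 20.17 TPM in controls, so neither level was higher beyond its spread. These shares are descriptions with no test, and they depend on the length used. With merged exon lengths UNG made up 63.5 and 61.4% with overexpression and 72.5 and 66.4% in controls.

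The 3 glycosylases for oxidised bases and their mispairs all fell, by less than UNG. NTHL1, which removes oxidised pyrimidines, had 13.7 and 10.9 CPM with overexpression, against 20.03 and 18.6 CPM in controls, and its log2 fold change was -0.65 (SE 0.160, edgeR adjusted p = 0.0109). MUTYH, which removes adenine paired with 8-oxoguanine, had 174 and 161.56 expected counts with overexpression, against 250 and 259 counts in controls, and its log2 fold change was -0.63 (SE 0.155, edgeR adjusted p = 0.0109). OGG1, which removes 8-oxoguanine itself, had 19.1 and 17.8 CPM with overexpression, against 28.4 and 23.3 CPM in controls, and its log2 fold change was -0.49 (SE 0.142, edgeR adjusted p = 0.0224). None of the 3 had overlapping groups, as was so for 79.8% of all genes tested. The calls of OGG1 and MUTYH were lost without either overexpression library, and that of NTHL1 without overexpression replicate 2.

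These 3 genes share exon bases with a neighbour on the opposite strand, and the sources used here do not state whether counting used strand, so their counts are less certain. OGG1 (chr3:9749944-9788219, plus strand) shares 25% of its exon bases with CAMK1, which was itself lower (log2 fold change -0.43, edgeR adjusted p = 0.0149). MUTYH (chr1:45329163-45340470, minus strand) shares 14.1% with TOE1, also lower (log2 fold change -0.77, edgeR adjusted p = 0.012). NTHL1 (chr16:2039815-2047866, minus strand) shares 16.5% with TSC2, whose log2 fold change of 0.20 did not pass. The part of these neighbours in the members' values was not tested. UNG, TDG and POLB share no exon bases with another annotated gene. Processed copies of UNG (UNGP1 and UNGP3), TDG (TDGP1) and SMUG1 (SMUG1P1) lie elsewhere in the genome and are not among the counted genes. Their part in the members' counts was not tested.

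Downstream of the glycosylases, APEX1 fell and POLB rose. APEX1, the main endonuclease for sites that have lost their base, had 141.6 and 134.7 CPM with overexpression, against 246.9 and 243.0 CPM in controls. The replicates of each group were close and the groups far apart. It was 1.77-fold lower (log2 fold change -0.83, SE 0.0950, edgeR adjusted p = 0.000449), the smallest adjusted p of the 10 members. APEX1 lies at chr14:20455191-20457772 on the plus strand.

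XRCC1, the scaffold that holds polymerase and ligase at the nick, had 30.3 and 34.0 CPM with overexpression, against 45.98 and 38.8 CPM in controls. The groups were separate, with a spread in each that was a large part of the gap. It was 1.32-fold lower (log2 fold change -0.40, SE 0.131, edgeR adjusted p = 0.0349). XRCC1 lies at chr19:43543040-43580473 on the minus strand. It shares 15.5% of its exon bases with the locus L34079.3 on the opposite strand. A further 6.48% is shared with L34079.1, a coding gene on the same strand, and the part of these loci in its counts was not tested. The call was lost in 5 of 15 tested alternatives, DESeq2 (adjusted p = 0.0578) and the omission of either overexpression library among them.

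POLB, the polymerase that fills the gap in short-patch repair, had 50.7 and 45.0 CPM with overexpression, against 35.9 and 32.7 CPM in controls. Both overexpression libraries were above both controls. The difference was 1.39-fold, a log2 fold change of 0.48 (SE 0.119, edgeR adjusted p = 0.0116), and 74.1% of all tested genes had a lower log2 fold change. Without overexpression replicate 1 the log2 fold change was 0.39 and the call was lost (adjusted p = 0.164). After removal of the trend of log2 fold change on transcript length and GC content the POLB value was 0.92 and that of MBD4 0.0037. The other values were -1.07 for UNG, -0.79 for MUTYH, -0.75 for APEX1, -0.67 for XRCC1, -0.64 for OGG1, -0.63 for NTHL1, -0.54 for TDG and -0.28 for SMUG1. All are values with no test.

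**Figure D3:**
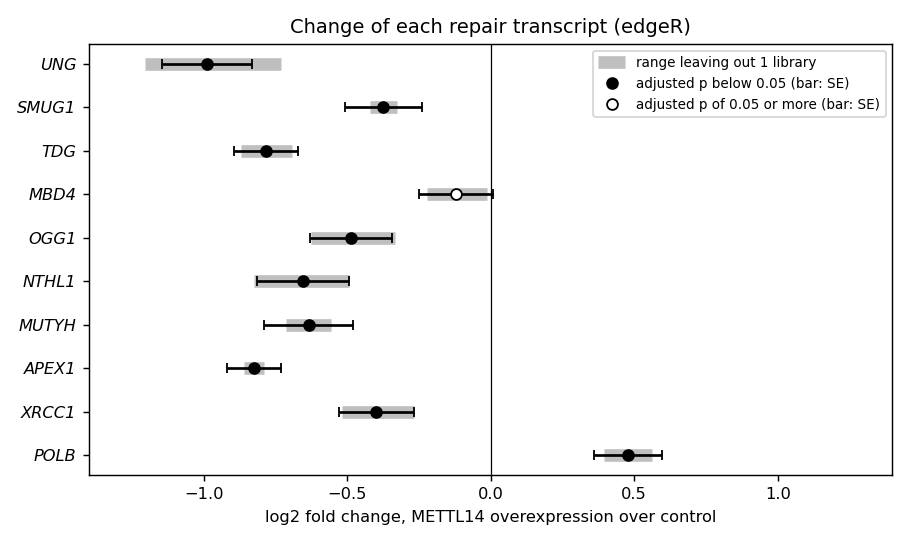
Log2 fold change of each member, METTL14 overexpression over control, with its standard error and, in grey, the range when 1 library is left out. UNG has the widest range and MBD4 the value nearest to 0.

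Per length, with the median coding transcript, APEX1 was the most abundant member and MUTYH the least abundant in both groups. APEX1 averaged 190.0 TPM with overexpression and 309.3 TPM in controls, and MUTYH averaged 9.42 TPM with overexpression and 13.5 TPM in controls. With overexpression the order after APEX1 was POLB (87.8 TPM), UNG (71.3), TDG (52.8), XRCC1 (26.0), SMUG1 (25.5), NTHL1 (22.4), MBD4 (20.2) and OGG1 (19.04). In that order XRCC1 and SMUG1 did not differ beyond their spread, nor did NTHL1 and MBD4. The ranges of XRCC1 and NTHL1 overlapped too, and the lower SMUG1 library and the higher NTHL1 library both stood at 24.99 TPM. In controls it was UNG (129.4 TPM), TDG (83.3), POLB (57.8), NTHL1 (32.3), XRCC1 (31.5), SMUG1 (30.3), OGG1 (24.5) and MBD4 (20.2), where NTHL1 and XRCC1 overlapped, as did XRCC1 and SMUG1. Several places depended on the length used. With merged exon lengths OGG1 was lowest, at 7.16 TPM with overexpression and 10.01 TPM in controls, where MUTYH had 7.33 and 11.4 TPM. The OGG1 and MUTYH ranges overlapped with overexpression. XRCC1 (31.45 TPM) then stood above TDG (30.06 TPM) with overexpression, within their spread, and above POLB in controls (41.46 TPM). The place of POLB above UNG with overexpression also held for the median length only. With merged exon lengths POLB averaged 39.4 TPM and UNG 101.7 TPM with overexpression, against 28.3 TPM and 201.2 TPM in controls.

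Ratios of 2 members within a library do not depend on library scaling. The pairs given here were chosen after their values were seen, and carry no test. POLB stood at 1.67 and 1.32 counts per XRCC1 count with overexpression, against 0.780 and 0.843 in controls. POLB stood at 0.358 and 0.334 counts per APEX1 count with overexpression, against 0.145 and 0.135 in controls. In both pairs both overexpression libraries were above both controls. UNG stood at 1.89 and 1.66 counts per TDG count with overexpression, against 2.23 and 1.82 in controls, and these groups overlapped. UNG stood at 3.48 and 3.28 counts per MBD4 count with overexpression, against 7.74 and 4.82 in controls, and here both overexpression libraries were lower.

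**Figure D4:**
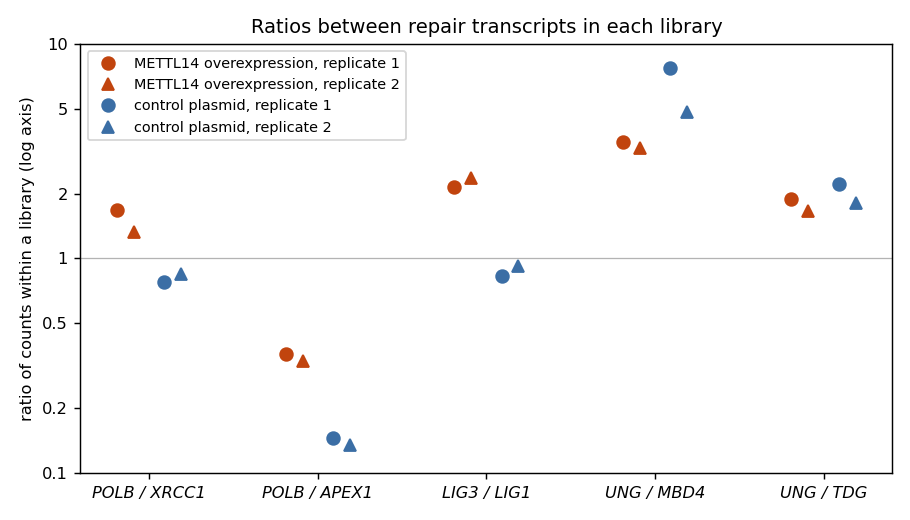
Count ratios of pairs of repair genes within each library (log axis), overexpression points left of control points. POLB over XRCC1 and POLB over APEX1 are higher in both overexpression libraries, and UNG over TDG overlaps between groups.

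Genes that work beside the members were grouped by their step. Of 16 long-patch genes, 15 were lower and 1 was higher, with a median log2 fold change of -1.33, against -0.56 for the members; the difference between the lists was not tested. FEN1 averaged 34.5 ± 0.669 CPM with overexpression and 133.3 ± 19.7 CPM in controls (log2 fold change -1.95, SE 0.128). PCNA, the sliding clamp, averaged 84.4 ± 1.09 CPM with overexpression and 274.9 ± 34.7 CPM in controls (log2 fold change -1.70, SE 0.118). The clamp loader genes RFC3 (-1.89) and RFC5 (-1.61) fell similarly on the log2 scale. The exception was POLD4, an accessory subunit of polymerase delta named after its values were seen, with a log2 fold change of 0.75 (SE 0.138, edgeR adjusted p = 0.00328) and 21.3% of its exon bases shared with a neighbour on the same strand. POLB stood at 1.45 and 1.32 counts per FEN1 count with overexpression, against 0.244 and 0.274 in controls. The ligases were also chosen after their values were seen. LIG3, the partner of XRCC1, stood at 2.16 and 2.37 counts per LIG1 count with overexpression, against 0.830 and 0.926 in controls. LIG1 was lower (log2 fold change -1.54, SE 0.137), while LIG3 did not pass (-0.16, edgeR adjusted p = 0.249) and shares 29.1% of its exon bases with RFFL on the opposite strand.

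These falls went with lower levels of S-phase genes. Of 17 S-phase genes 16 were lower, with a median log2 fold change of -2.09 and CCNE1 (0.17, named after its values were seen) not passing, and the list summed to 1008 and 961.3 CPM with overexpression, against 4730 and 3506 CPM in controls. UNG is itself known to peak in S phase. The part of cell cycle state in the members' values was not tested.

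**Figure D5:**
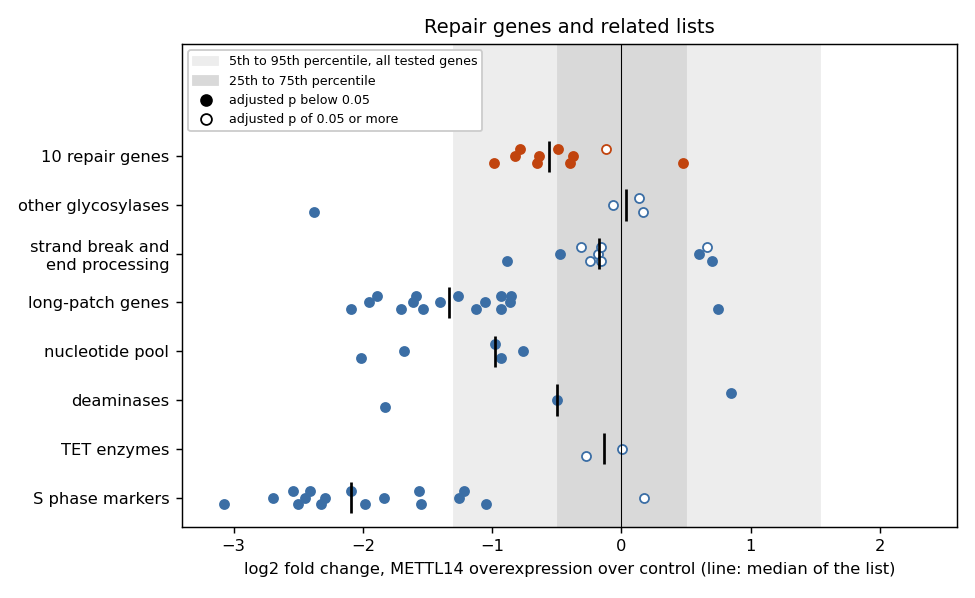
Log2 fold change of every tested gene in the members and in the related gene lists, METTL14 overexpression over control. The long-patch and S-phase genes lie lowest, with medians of -1.33 and -2.09, and the members have a median of -0.56.

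Among strand break and end processing genes, 2 of 10 were higher, 2 were lower and 6 did not pass. These counts are near the shares over all genes tested (27.0% higher and 28.1% lower). The lower count was 7 without control replicate 2 and 1 without either overexpression library. PARP1, the sensor of DNA breaks, averaged 293.3 ± 10.01 CPM with overexpression and 541.4 ± 46.3 CPM in controls (log2 fold change -0.88, SE 0.105, edgeR adjusted p = 0.000498). APEX2 was lower as well (log2 fold change -0.47, SE 0.140). POLL, a gap-filling polymerase of the same family as POLB, rose (log2 fold change 0.70, SE 0.112, edgeR adjusted p = 0.00173).

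Among 4 other glycosylases NEIL3 was called lower and the others did not pass, a share near the 28.1% of all genes tested. NEIL3 stood at 3.25 ± 0.0169 CPM with overexpression and 16.9 ± 3.27 CPM in controls (log2 fold change -2.38, SE 0.205, edgeR adjusted p = 0.000179). MPG (0.17), NEIL2 (0.13) and NEIL1 (-0.06) had log2 fold changes that did not pass; MPG shares 27.3% of its exon bases with NPRL3 and NEIL1 26.4% with MAN2C1, both on the opposite strand. All 5 nucleotide pool genes were lower. DUT had 836 and 828 counts with overexpression, against 1590 and 1500 counts in controls (log2 fold change -0.93, SE 0.103, edgeR adjusted p = 0.000385). TYMS averaged 60.7 ± 0.683 CPM with overexpression and 245.1 ± 51.2 CPM in controls (log2 fold change -2.01, SE 0.152), and it shares 39.2% of its exon bases with ENOSF1 on the opposite strand. UNG and DUT keep uracil out of DNA at different steps, and UNG stood at 1.84 and 1.83 counts per DUT count with overexpression, against 2.15 and 1.67 in controls, so the groups overlapped.

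Among the deaminases that make uracil from cytosine, 3 of 9 were measured well enough to test. APOBEC3B fell, with 32.6 ± 1.01 CPM with overexpression and 115.5 ± 23.6 CPM in controls (log2 fold change -1.83, SE 0.151), and APOBEC3C fell less (-0.50, SE 0.108). APOBEC3F rose, with 42.9 ± 2.68 CPM with overexpression and 23.8 ± 0.138 CPM in controls (log2 fold change 0.85, SE 0.114). APOBEC3A was at 0 counts in all 4 libraries. APOBEC3 genes are near-identical in parts, so their counts are less certain. The TET dioxygenases, which make the oxidised cytosines that TDG removes, gave no call in 2 tested genes: TET2 had a log2 fold change of -0.27 (edgeR adjusted p = 0.0898) and TET3 one of 0.01.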

How the data were processed

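Per the labels' protocols, poly(A) RNA was turned into NEBNext Ultra libraries for an Illumina NovaSeq. The submitters' processing notes name fastp, Bowtie2, HISAT2, StringTie, RSEM and the build hg18. Most gene identifiers (20171 of 20323) are also in GENCODE release 29 on GRCh38, so coordinates and lengths here are GENCODE's. The deposited unit is the expected count of a gene, without normalization by the authors (10.8 to 11.6% of a library's values are not whole, at a tolerance of 0), and values were rounded. Rows without a symbol numbered 102, and 4239 rows had 0 counts throughout.

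Counts were tested in edgeR 4.0.16 (R 4.3.3): filterByExpr (minimum count 10), TMM scaling, robust quasi-likelihood test with no covariate, Benjamini-Hochberg adjustment over 12700 genes at 0.05. The common biological coefficient of variation was 10.8%. Standard errors are the log2 fold change over the square root of F. TPM used median coding transcript length. The procedure was also tested on simulated counts. Alternatives were DESeq2 1.42.0, its size factors in edgeR, limma-voom (limma 3.58.1), library totals, no filter, no robust step, at least 5 CPM in 2 libraries, mitochondrial-genome genes left out, rows of a symbol summed, a replicate block, a 1.5-fold threshold (glmTreat), each library left out and a loess trend on length and GC removed (span 0.5). Tables and figures used Python 3.11.15.

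The members and gene lists were chosen with earlier results of these data known. Named are the 10 members, METTL14, DUT, TYMS and from each list up to 4 tested genes with the smallest p; a few of these are left out of the text. Other genes are said to be chosen after their values were seen, apart from list members that did not pass and exon-sharing neighbours.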

Additional observations from a re-analysis of the deposited data

How the results depend on the processing

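MBD4, which did not pass, had a log2 fold change of 0.0037 after removal of the length and GC trend, against -0.12; the other 9 members kept their sign throughout. With all 4 libraries, UNG and APEX1 passed in 11 of 11 tested alternatives, TDG, NTHL1, POLB, MUTYH and OGG1 in 10, XRCC1 in 8, SMUG1 in 6 and MBD4 in 0. Leaving out 1 library leaves a group with a lone library, which is assumed to vary like the pair of the other group. Without a control the spread thus came from the closer overexpression pair, and passes there say little about stability. Against a 1.5-fold threshold (glmTreat) 2 members were lower (UNG and APEX1) and 0 higher. That test called 1416 of all genes higher and 1357 lower, 0 strand break genes higher and 1 lower, 0 long-patch genes higher and 1 deaminase lower. DESeq2 called 6 members lower, as did library totals. Leaving out 1 library gave 3 to 8 members lower, with 3 without overexpression replicate 2 and 4 without overexpression replicate 1, and 0 to 1 higher. It gave 2307 to 4575 of all genes lower and 2307 to 4452 higher, 0 to 1 other glycosylases higher, 1 to 7 strand break genes lower, 1 to 2 deaminases lower and 0 to 2 TET genes lower. The cause of these differences was not tested, beyond the fewer libraries or stricter threshold of each setting. Same-numbered libraries did not deviate together (correlation 0.0836), so the numbers were not taken as pairs. With a replicate block 8 members were lower and 1 higher, and 3903 of all genes were lower and 3797 higher; the UNG log2 fold change was -0.97 and that of POLB 0.48. The MBD4 log2 fold change was smaller than its standard error (0.128).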
